A study of Homo sapiens with 8 samples.

Results

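Integrins are cell-surface receptors built from 1 alpha and 1 beta chain, and they hold leukocytes to other cells and to extracellular matrix. In monocytes and neutrophils the beta chain ITGB2 pairs with ITGAL, ITGAM or ITGAX to bind ICAM family proteins and complement, whereas ITGB1 pairs with ITGA4, ITGA5 or ITGA6 to bind VCAM1, fibronectin or laminin. A chain without its partner is held back inside the cell, so the levels of both chains bear on what can reach the surface, and talin and kindlin then switch the receptor on by binding the beta chain's tail. The 10 integrin chains described here were ITGAM, ITGAX, ITGAL, ITGB2, ITGA4, ITGA5, ITGA6, ITGB1, ITGB3 and ITGB7. They were chosen by name from 61125 genes in the count table, and each was found as 1 row. After the filter on low counts 14995 genes were tested, among them 9 of the 10 chains. ITGB3, the beta chain of the vitronectin receptor and of the platelet fibrinogen receptor, had 1 count over all 8 libraries and was not tested.

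The cells were U-937, an established human line described as pro-monocytic. They were treated for 72 h with 250 µM LAA (L-ascorbic acid, dissolved in PBS), with 1 µM ATRA (all-trans retinoic acid, dissolved in DMSO), with both, or with PBS and DMSO as vehicle, and each of the 4 groups had 2 libraries. Whether the cells given a single compound also received the solvent of the other is not stated in the labels. All groups are the same line, so the data describe 1 leukemic cell line and no primary monocytes. The comparisons ask what each compound did alone, what LAA added to ATRA, and whether the pair differed from the sum of its parts.

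Library totals ran from 18462552 to 24166770 estimated counts. Nothing in the labels says that replicates came from separate cultures, so the p-values measure the spread between these libraries, which may be technical. Replicates differed by more than counting noise in every group. Of 12 myeloid genes listed as markers of the line all 12 were measured, with a summed normalised read count of 3580 to 3680 CPM in vehicle (counts scaled to library size), 3920 to 4180 with LAA, 6180 to 6420 with ATRA and 6210 to 6590 with both. MPO, a granule enzyme of this list, had 70 counts over all libraries. Defining genes of T cells (CD3D, CD3E, CD8A), B cells (MS4A1), platelets (PF4, GP9), red cells (HBB) and endothelium (CDH5, KDR) were at 0 counts in all libraries. The level of a gene's RNA also moved with its length: per doubling of gene length, log2 CPM relative to the mean of all libraries changed by 0.08 to 0.11 in vehicle, by -0.03 to -0.02 with LAA, by 0.01 to 0.04 with ATRA and by -0.11 to -0.07 with both. The length meant here is the one implied by dividing count by FPKM, and ITGA4 (5801 bases), ITGA6 (4939 bases) and ITGAM (3996 bases) were the longest tested chains, against a median of 2012 bases over the genes tested. The chains are therefore also given after an added correction for length and GC content wherever that changed a call or a direction.

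The promoters of 6 chains were in the RefSeq table used here (ITGAM, ITGA4, ITGA5, ITGA6, ITGB1 and ITGB7, assembly GRCh38.p14). Shown are those of the 3 matched chains that rose most with ATRA, read 5′ to 3′ on the gene's strand with no base of the annotated gene; the ITGA6 stretch ends shortly before the gene and the others at its edge. They are ITGAM at chr16:31259725-31259966 on the plus strand, ITGA6 at chr2:172427086-172427335 on the plus strand and ITGB7 at chr12:53207308-53207501 on the minus strand. Capitals mark GAGGAA, the core letters of an ETS and PU.1 site.
ITGAM: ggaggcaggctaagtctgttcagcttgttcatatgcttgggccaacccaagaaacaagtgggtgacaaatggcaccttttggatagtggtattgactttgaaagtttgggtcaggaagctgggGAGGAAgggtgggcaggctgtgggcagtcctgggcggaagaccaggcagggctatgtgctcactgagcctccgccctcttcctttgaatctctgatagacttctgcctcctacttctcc
ITGA6: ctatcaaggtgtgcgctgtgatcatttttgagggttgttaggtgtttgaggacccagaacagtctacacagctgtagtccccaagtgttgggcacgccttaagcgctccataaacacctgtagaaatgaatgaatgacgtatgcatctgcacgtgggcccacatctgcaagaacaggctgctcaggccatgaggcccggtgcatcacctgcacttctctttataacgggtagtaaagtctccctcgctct
ITGB7: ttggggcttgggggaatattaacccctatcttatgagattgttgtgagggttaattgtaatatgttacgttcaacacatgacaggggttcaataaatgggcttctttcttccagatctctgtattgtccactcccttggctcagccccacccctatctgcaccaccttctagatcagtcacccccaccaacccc
The percentages that follow are per promoter. A chain counts as a carrier if any of its starts does, and ITGA6 and ITGB1 each had a second start. In the 250 bases before a RefSeq start, GAGGAA on either strand was present in 23.6% of 35116 promoters and in 3 of the 6 chains. In ITGAM it lay at -127 to -122 from the start; the other carriers were ITGB1 (-184 to -179) and ITGB7 (-28 to -23, past the printed stretch). The SP1 letters GGGCGG were in 42.6% of promoters and in 4 of the 6, namely ITGAM, ITGA5, ITGB1 and, only at its second start, ITGA6. TTGCNNAA, the letters of a C/EBP site, was in 9.05% of promoters and in ITGA5 alone among the chains, and TGTGGT, the RUNX core, in 11% and in ITGA6 alone, at a second start downstream of the printed one. AGGTCA, the letters that retinoid receptors bind in pairs, was in 12.1% of promoters and in none of the 6. All motifs were searched on both strands and do not overlap one another where found. These are matches of letters in a window and do not show binding.

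In U-937 cells given ATRA, 8 of the 9 tested chains rose and none fell. ITGAM, the alpha chain CD11b of the complement receptor, rose 12.7-fold. ITGA6 rose 4.04-fold, ITGAX 3.97-fold, ITGB2 2.89-fold, ITGAL 2.88-fold and ITGA5, the fibronectin receptor chain, 2.26-fold. ITGB1 rose 1.33-fold. ITGB7 rose 15.0-fold, but it had only 3 to 21 counts a library without ATRA. It passed the low-count filter through the groups in which it is high, so its place among the 8 supports nothing. The same holds for its part in the median and in the counts of chains that follow. ITGA4, the alpha chain that binds VCAM1, did not pass the test. Beside this count, 42.9% of all genes tested were called in the same comparison, 21.9% higher and 21% lower. The 2 ATRA libraries lay outside the range of the 2 vehicle libraries for all 9 chains, as they did for 71.9% of all genes tested, and for 7 of the 9 all 4 libraries with ATRA, alone or with LAA, lay outside the range of the 4 without it, against 43.4% of all genes. The median log2 fold change was 1.53 over the 9 chains and -0.0036 over all genes tested. In bulk RNA a change in the share of cells that carry a transcript and a change in its amount per cell cannot be told apart.

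Among the alpha chains that pair with ITGB2, ITGAM (chromosome 16, 31259967 to 31332892, GRCh38) read 10.2 and 11.5 CPM in vehicle and 11.6 and 13.97 CPM with LAA. With ATRA it read 153.7 and 121.6 CPM, and with LAA+ATRA 114.9 and 98.96 CPM. All 4 libraries with ATRA lay far above all 4 without it. The ATRA over vehicle difference was 3.67 ± 0.15 on the log2 scale (SE; edgeR quasi-likelihood test, adjusted p = 5.15e-09). With LAA+ATRA it was 3.30 ± 0.15 over vehicle (adjusted p = 1.56e-08 by the same test).

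ITGAX, the CD11c chain of dendritic cells and macrophages, is the neighbour of ITGAM on chromosome 16 (31355134 to 31382997). It read 8.62 and 7.81 CPM in vehicle, 8.63 and 6.67 with LAA, 36.6 and 28.9 with ATRA and 25.3 and 25.5 with LAA+ATRA. Again no library with ATRA overlapped one without it, and the ATRA difference was 1.99 ± 0.16 (adjusted p = 1.65e-06, edgeR). The length implied for ITGAX, relative to its vehicle mean, was 91.7% and 73.6% in the ATRA libraries and 73.7% and 73.3% with both. Over all genes the 5th percentile was 80.3%, taken on the mean of the 2 ATRA libraries over that of vehicle. Single libraries, and those with both compounds, therefore cannot be ranked against it. FPKM divides by the implied length, and CPM does not. ITGAM and ITGAX resemble each other and ITGAD in sequence, and how the authors' counting divided shared reads is not given in the sources used here. ITGAD, the remaining partner of ITGB2, had group means from 1.79 to 2.69 CPM. The highest, 2.69 ± 1.96 CPM (SD, n = 2) with LAA+ATRA, came from 2 libraries that lay far apart.

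ITGAL, the CD11a chain of the lymphocyte function antigen (chromosome 16, 30472658 to 30523185), read 61.4 and 72.0 CPM in vehicle and 51.8 and 48.1 CPM with LAA. It read 210.4 and 173.5 CPM with ATRA and 171.8 and 136.6 CPM with both. The libraries of each group with ATRA again lay above all libraries without it, by 1.53 ± 0.14 on the log2 scale for ATRA over vehicle (adjusted p = 3.68e-06, edgeR). Their common partner ITGB2, or CD18 (chromosome 21, 44885953 to 44931989), was the most abundant chain. ITGB2 read 793.4 and 819.1 CPM in vehicle, 704.0 and 804.9 with LAA, 2453 and 2210 with ATRA and 1743 and 1387 with both. The ATRA difference of ITGB2 was 1.53 ± 0.12 (adjusted p = 1.46e-06, edgeR), and with both compounds it stood 0.96 ± 0.12 above vehicle (adjusted p = 6.15e-05, edgeR).

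**Figure D1:**
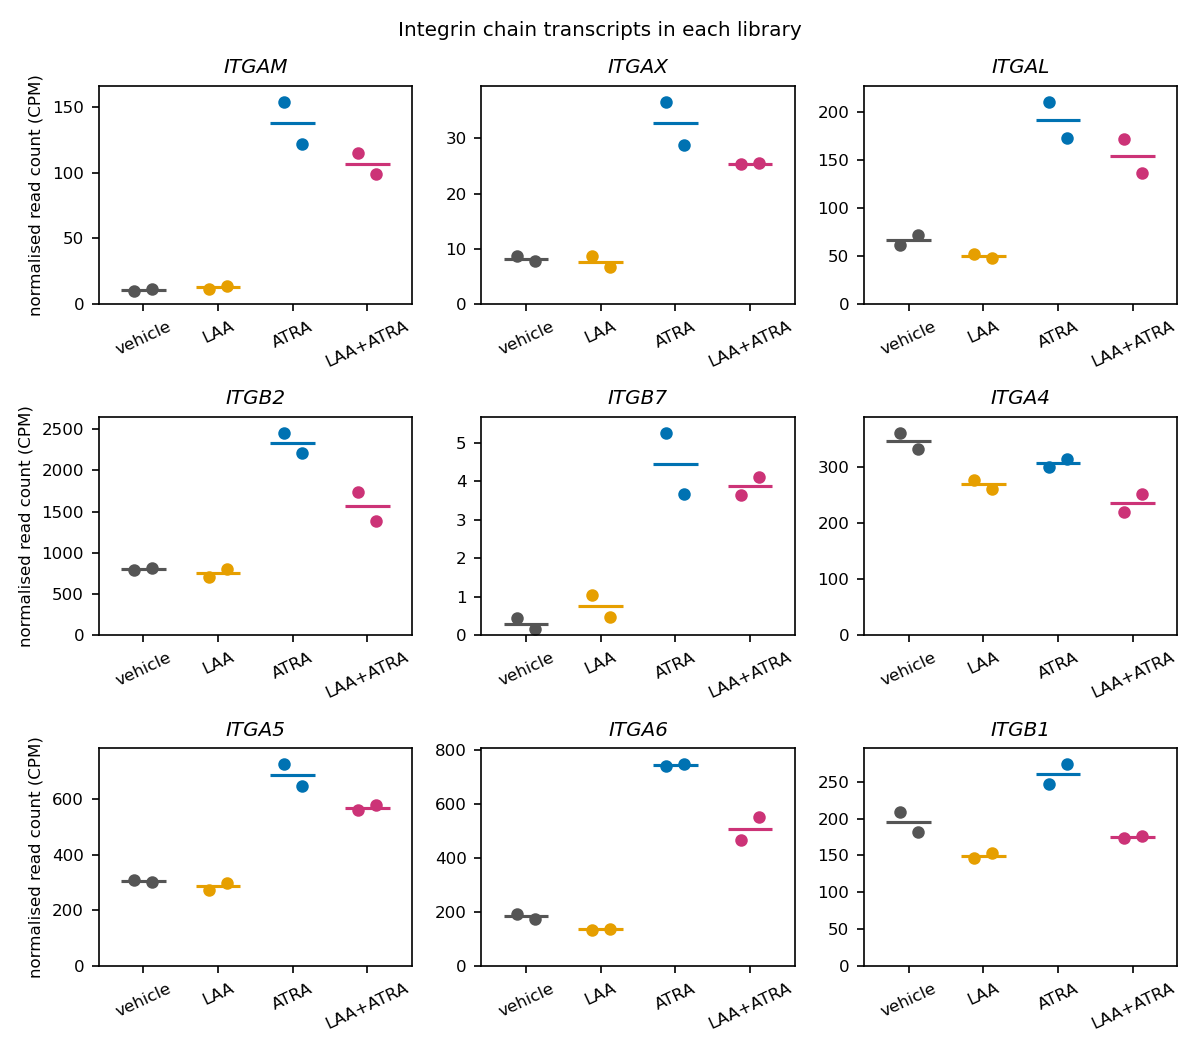
Level of each integrin chain in every library in CPM on a linear axis that starts at 0 (points, 2 per group; the bar is the group mean), 1 panel per chain with its own scale. ITGAM, ITGAX, ITGAL, ITGB2, ITGA5, ITGA6 and ITGB7 are higher in all 4 libraries with ATRA than in the 4 without it, whereas ITGA4 is not.

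The chains that pair with ITGB1 did not move alike. ITGA6, a laminin receptor chain (chromosome 2, 172427354 to 172506282), read 192.6 and 175.0 CPM in vehicle and 132.9 and 138.0 CPM with LAA. It read 738.9 and 747.0 CPM with ATRA and 464.5 and 551.2 CPM with both, so the ATRA libraries held the highest levels and the LAA libraries the lowest. ATRA raised it by 2.02 ± 0.11 over vehicle (adjusted p = 4.52e-08, edgeR). An antisense gene that overlaps ITGA6, AC078883.1, had 322 to 771 counts a library, its lowest in LAA+ATRA replicate 2. ITGA5 (chromosome 12, 54395261 to 54419460) read 308.2 and 300.7 CPM in vehicle, 273.0 and 298.6 with LAA, 725.1 and 648.3 with ATRA and 558.8 and 576.6 with both. Its ATRA difference was 1.17 ± 0.10 (adjusted p = 2.11e-06, edgeR).

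ITGA4 (chromosome 2, 181457202 to 181536187) read 359.4 and 330.9 CPM in vehicle and 299.7 and 312.6 CPM with ATRA, a difference of -0.17 ± 0.10 that did not pass the test (adjusted p = 0.196, edgeR). It read 276.8 and 260.1 CPM with LAA and 218.2 and 251.1 CPM with both. The libraries with both compounds were the lowest 2, and ITGA4 was the chain called lower there, by -0.56 ± 0.10 against vehicle (adjusted p = 0.000892, edgeR), the reverse of the 7 chains that rose. After correction for length and GC that difference was -0.13 and was no longer called (adjusted p = 0.196), and the ATRA difference became 0.06. ITGB1 (chromosome 10, 32900319 to 33005792) read 208.9 and 181.7 CPM in vehicle, 146.3 and 153.6 with LAA, 246.6 and 273.9 with ATRA and 174.2 and 176.5 with both. Its rise with ATRA was 0.41 ± 0.10 (adjusted p = 0.00631, edgeR), and without vehicle replicate 2 it was 0.32 and was not called (adjusted p = 0.11). With both compounds ITGB1 stood at -0.16 ± 0.10 against vehicle (adjusted p = 0.245, edgeR), a sign that turned after the length and GC correction, to 0.16.

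ITGB7, the beta chain of gut-homing lymphocytes, also a partner of ITGA4 (chromosome 12, 53191318 to 53207307), was near the limit of detection without ATRA. It had 9 and 3 counts in vehicle, 21 and 9 with LAA, 95 and 85 with ATRA and 65 and 82 with both, or 0.433 and 0.146, 1.04 and 0.473, 5.25 and 3.67, and 3.63 and 4.12 CPM in that order. The ATRA difference was 3.91 ± 0.52 (adjusted p = 7.71e-05, edgeR), and leaving out 1 library at a time it ran from 3.34 to 4.88. The gene overlaps ZNF740 on the other strand, which had 444 to 707 counts a library, and the strand setting is not given in the sources used here.

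LAA by itself called none of the 9 chains. In that comparison 0.0267% of all genes tested were called (4 genes), and 18.9% had an unadjusted p under 0.05. Of the chains 5 had an unadjusted p under 0.05: ITGAL (-0.42 ± 0.14), ITGA4 (-0.36 ± 0.10), ITGA6 (-0.44 ± 0.11), ITGB1 (-0.38 ± 0.10) and ITGB7 (1.38 ± 0.59), with adjusted p from 0.0696 to 0.234 by the edgeR test. In the libraries, 7 of the 9 chains (all but ITGAX and ITGB2) had LAA and vehicle libraries that did not overlap, against 56% of all genes. DESeq2, the fit without the low-count filter and the fit on the compared libraries alone each called 4 chains. These were ITGAL, ITGA4, ITGA6 and ITGB1, all lower. Over all genes, each of these fits also called far more than the 4 genes of the main fit. The most, 2187, came from the fit on the compared libraries, which leaves out the groups with ATRA. The 4 chains are therefore part of a wider rise in calls. That the main fit called no chain therefore does not show that LAA alone had no effect. For ITGA4, ITGA6 and ITGB1 the correction for length and GC brought the differences to -0.11, -0.21 and -0.21, whereas ITGAL stayed at -0.43.

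Cells given LAA with ATRA had lower estimates than cells given ATRA alone for all 9 chains, and 3 of these differences passed the test. ITGB1 was lower by -0.57 ± 0.10 (adjusted p = 0.0338, edgeR), ITGA6 by -0.55 ± 0.11 (adjusted p = 0.0428) and ITGB2 by -0.58 ± 0.12 (adjusted p = 0.0491). In CPM, ITGB2 went from 2332 ± 172 (SD, n = 2) with ATRA to 1565 ± 251.5 with both, and ITGB1 from 260.2 ± 19.3 to 175.3 ± 1.57. In this comparison 1.01% of all genes tested were called, 0.52% lower, and 18.6% had an unadjusted p under 0.05; of the 9 chains 8 had one, and their median log2 difference was -0.364 against 0.00354 over all genes. For 8 chains, all but ITGB7, the 2 libraries with both lay below the 2 with ATRA alone; the 2 groups did not overlap, in either direction, for 44.1% of all genes. These 3 calls sat close to the threshold: leaving out any 1 of the 8 libraries left 0 or 1 of them, and the FPKM fits, the implied gene length offsets (adjusted p from 0.0601 to 0.0834) and the fit on the compared libraries alone left 0. The added length and GC correction kept all 3, at -0.62 for ITGB2, -0.42 for ITGB1 and -0.36 for ITGA6, and DESeq2 called 5 chains. Over all genes, the fit on the compared libraries alone called 15, against 152 in the main fit.

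ITGAM, ITGAX, ITGAL, ITGA4 and ITGA5 differed by -23.4% to -17.3% between both compounds and ATRA alone, with adjusted p from 0.0844 to 0.234 in edgeR. ITGB7 differed by -0.20 ± 0.40, within its own error. Against LAA alone, LAA+ATRA raised 7 chains (36.4% of all genes tested were called, 18.4% higher), by 0.99 ± 0.10 for ITGA5 up to 3.06 ± 0.15 for ITGAM. ITGB7 was among the 7, and its place again supports nothing. ITGB1 (0.23 ± 0.10, adjusted p = 0.11) and ITGA4 (-0.19 ± 0.10, adjusted p = 0.165) did not pass the edgeR test. After the length and GC correction ITGB1 stood at 0.36 and was called (adjusted p = 0.00363, edgeR). It was not called in 9 of the 10 alternatives that kept all libraries. ITGA4 was not called in 7 of these 10, and its estimates ran from -0.38 to -0.02. Against vehicle the pair called 8 chains, 7 higher and 1 lower, where 44.7% of all genes were called (23.1% higher and 21.5% lower). The libraries did not overlap for all 9 chains in either comparison, against 68.8% of all genes for LAA+ATRA over LAA and 73.8% for LAA+ATRA over vehicle. These comparisons share libraries and are given side by side.

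**Figure D2:**
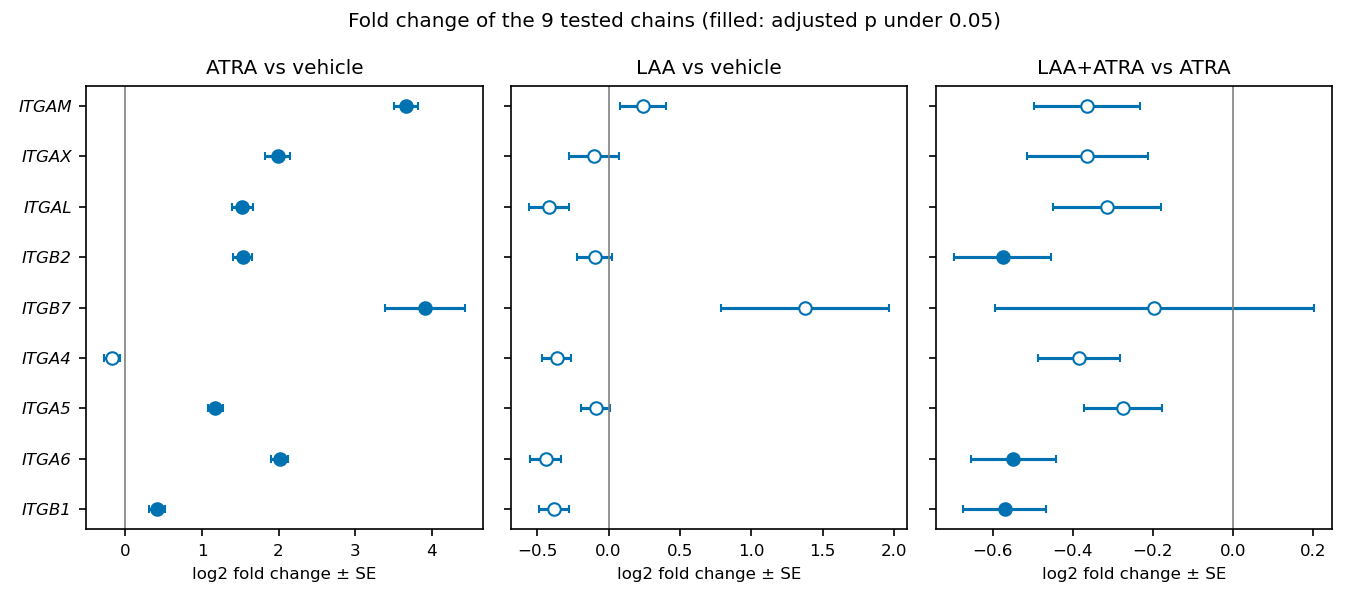
Log2 fold change of the 9 tested chains (points, with bars of 1 SE on either side; filled points passed the edgeR test at an adjusted p under 0.05) for ATRA over vehicle, LAA over vehicle and LAA+ATRA over ATRA, each panel with its own scale on the x axis. ATRA over vehicle lies from -0.17 for ITGA4 to 3.91 for ITGB7, whereas LAA+ATRA over ATRA lies below 0 for all 9 chains.

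Whether LAA acted differently with ATRA than without it was tested by the interaction, which is the effect of LAA in ATRA-treated cells minus its effect in vehicle. No chain was called, and 0.00667% of all genes tested were (1 gene, with 4.98% at an unadjusted p under 0.05). The estimates of ITGAM (-0.60 ± 0.21, unadjusted p = 0.0133, adjusted p = 0.856), ITGB2 (-0.48 ± 0.17, unadjusted p = 0.0164, adjusted p = 0.874) and ITGB7 (-1.57 ± 0.71, unadjusted p = 0.0475, adjusted p = 0.986) had unadjusted p under 0.05 in edgeR. An interaction that is not called with 2 libraries a group does not show that LAA acted alike in both states. The effect of LAA was also averaged over both ATRA states, a contrast chosen after seeing the data. It called 5 chains, all lower, where 12.5% of all genes were called (5.98% lower): ITGA6 by -0.49 ± 0.08 (adjusted p = 0.00535, edgeR), ITGB1 by -0.48 ± 0.07, ITGA4 by -0.37 ± 0.07, ITGAL by -0.37 ± 0.10 and ITGB2 by -0.34 ± 0.09, the last 4 with adjusted p from 0.00559 to 0.0315. For ITGB2 the average joined -0.10 ± 0.12 without ATRA, which was not called, and -0.58 ± 0.12 with it. In the averaged effect no chain was called without vehicle replicate 1, 2 without LAA replicate 2, 3 without vehicle replicate 2 and 3 without LAA replicate 1. The FPKM fits called 0 chains and the implied gene length offsets 3. After the length and GC correction 4 remained, at -0.28 for ITGA6, -0.31 for ITGB1, -0.37 for ITGAL and -0.38 for ITGB2, and ITGA4 at -0.15 was not called (adjusted p = 0.13). The calls over all genes moved as well, from 1870 to between 109 and 2144 without 1 library. In the alternatives that kept all libraries they ran from 11 to 2486.

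Levels of different chains can be set beside each other only per length, which the FPKM values (fragments per kilobase, scaled to library size) allow. In vehicle the order was ITGB2 (320.1 ± 10.7 FPKM, SD, n = 2), ITGA5 (118.3 ± 6.87), ITGA4 (62.3 ± 2.58), ITGB1 (58.5 ± 6.09), ITGA6 (37.8 ± 1.15), ITGAL (27.4 ± 2.22), ITGAM (2.59 ± 0.02), ITGAX (2.11 ± 0.21) and ITGB7 (0.163 ± 0.150). Only ITGA4 and ITGB1 overlapped among neighbours in that order. With LAA the order was the same, from ITGB2 at 301.9 ± 18.4 FPKM to ITGB7 at 0.291 ± 0.158, and no neighbours overlapped. With ATRA, ITGA6 moved up to the third place at 156.3 ± 11.5 FPKM, behind ITGB2 (954.2 ± 28.9) and ITGA5 (251.3 ± 20.4). ITGB1 (76.5 ± 2.89) and ITGAL (74.3 ± 8.11) then overlapped, ITGA4 followed at 52.0 ± 3.48, and ITGAM reached 35.2 ± 4.13 FPKM. With both compounds ITGB2 stood at 682.2 ± 70.1 FPKM, ITGA5 at 228.6 ± 38.3, ITGA6 at 98.1 ± 10.7, ITGAL at 67.4 ± 14.4, ITGB1 at 49.4 ± 0.845, ITGA4 at 37.3 ± 2.58 and ITGAM at 29.4 ± 5.77, with no overlap between neighbours. ITGB3 was listed at 0 FPKM in 7 of the libraries.

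The makeup of each receptor family shifted with ATRA. ITGAM made up 7.56% to 12.3% of the summed FPKM of the alpha chains that pair with ITGB2 in the 4 libraries without ATRA and 27.5% to 29.6% in the 4 with it, a difference of 18.7 percentage points. ITGA4 made up 27.4% to 29.7% of ITGA4, ITGA5 and ITGA6 together without ATRA and 9.77% to 11.4% with it. ITGB2 made up 83.2% to 87.2% of the 4 beta chains without ATRA and 92.1% to 93.4% with it. In each of the 3 shares all 4 libraries with ATRA lay on the same side of the 4 without it. A two-sided exact permutation test gave p = 0.0286 for each (n = 4 against 4, adjusted over the 3 shares 0.0286). This is the smallest value that 4 against 4 allows. The test exchanged libraries freely and pooled those with and without LAA on each side. Its p therefore takes no account of the LAA groups and is not read as a test within them. Within the groups without ATRA, the ITGAM share was 8.35% and 7.56% in vehicle and 10.9% and 12.3% with LAA.

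Set against its partners, ITGB2 was 9.61 to 12.6 times the sum of its alpha chains in FPKM without ATRA and 6.07 to 8.38 times with it, so it stayed in excess in each library. ITGA4, ITGA5 and ITGA6 together were 3.44 to 4.10 times ITGB1 without ATRA and 5.54 to 8.21 times with it. The ratio of ITGA6 to ITGA4 went from 0.532 to 0.611 without ATRA to 2.55 to 3.02 with it, so ITGA6 lay below ITGA4 in the 4 libraries without ATRA and above it in the 4 with ATRA. These are ratios of RNA and say nothing of protein at the surface.

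**Figure D3:**
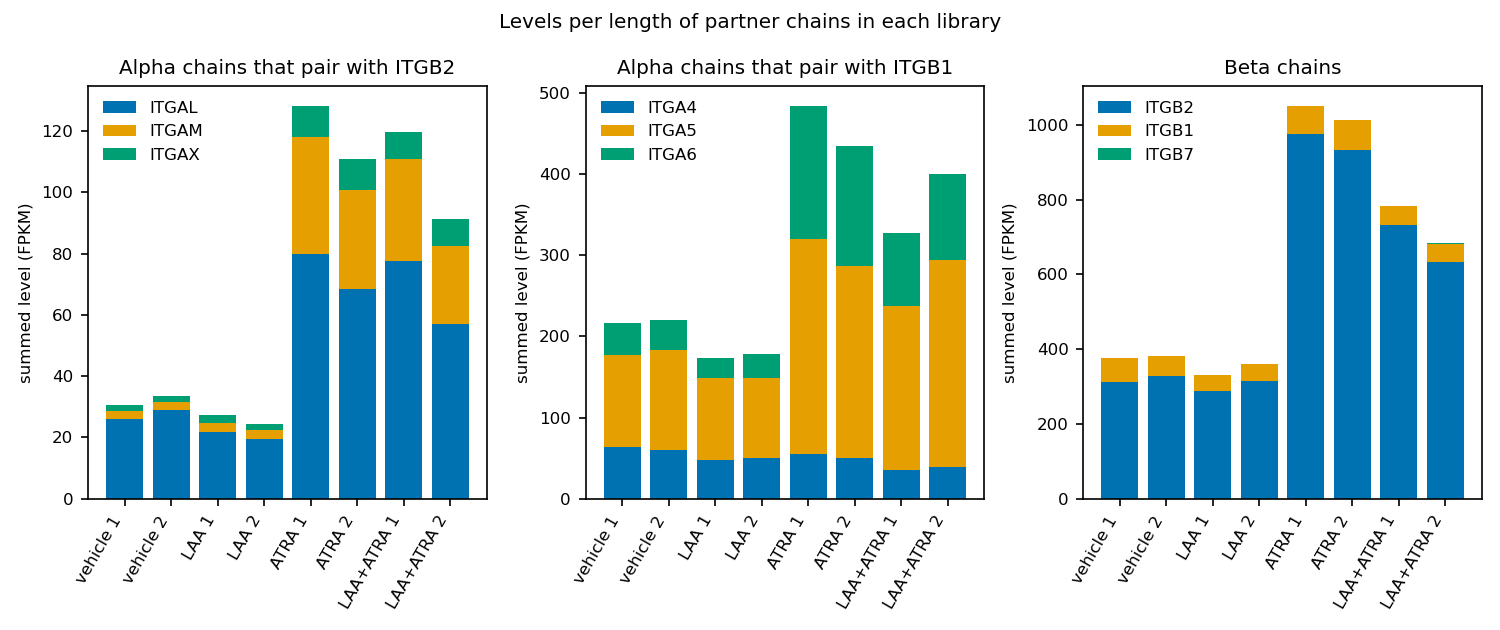
Stacked bars of FPKM in each of the 8 libraries, on linear axes that start at 0, for ITGAL, ITGAM and ITGAX (left), ITGA4, ITGA5 and ITGA6 (middle) and the beta chains ITGB2, ITGB1 and ITGB7 (right). The ITGAM and ITGA6 segments are wider in the 4 libraries with ATRA, and ITGB2 fills most of each beta chain bar.

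For each chain, the genes whose pattern over the 8 libraries was most like it were those with the smallest root mean square difference of log2 CPM after removing each gene's mean, among 10651 genes. For ITGAM they were MVP (0.116), CTSD and VSIR; CTSD, the lysosomal protease cathepsin D, went from 2490 CPM in vehicle to 26400 CPM with ATRA. The nearest to ITGB2 were P2RX1 (0.0885), MGAT1 and PBXIP1, and to ITGA6 were SLC16A9 (0.0798), MERTK and CD93. ITGB1 was followed most closely by PTPRC (0.0636), the leukocyte phosphatase CD45, then ACSL5 and FAM217B. ITGA4 was nearest to ZZZ3 (0.0431), MAN2A1 and TRPM7, ITGA5 to TMEM104 (0.0556), GBA2 and LINC00847, ITGAL to BMF (0.131), SNTB1 and TREML2, and ITGAX to SFXN5 (0.132), UXS1 and SPECC1. ITGB7 was nearest to LILRB3, at 0.283 the loosest match.

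Of the 16 other integrin chains 10 were measured well enough to test. With ATRA 2 of the 10 rose and 1 fell, where 21.9% of all genes were called higher and 21% lower. These counts are not read as a result about the list. ATRA raised ITGAE, the partner of ITGB7 on mucosal lymphocytes (1.87-fold, 13.7 to 25.6 CPM), and ITGB5 (2.55-fold, 3.14 to 7.99 CPM), and lowered ITGA7, a laminin receptor chain (0.583-fold, 16.8 to 9.81 CPM). ITGAV, ITGA3, ITGA9 and ITGB4 were among the 7 that did not pass.

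Proteins that switch integrins on and tie their tails to actin were next. Of 18 tested, 12 rose with ATRA and 2 fell (all genes: 21.9% higher and 21% lower), with a median log2 fold change of 0.576 against -0.0036 over all genes. APBB1IP, the RAP1 adaptor that brings talin to the membrane, rose 4.93-fold (48.8 to 241 CPM) and SKAP2, an adaptor needed for ITGB2 activation, 2.44-fold (67.4 to 164 CPM). FERMT3, the kindlin of blood cells, rose 2.07-fold and TLN1, talin, 1.75-fold, whereas FERMT1, the kindlin of epithelium, fell to 0.198-fold and TLN2 to 0.362-fold. Among 15 tested tail inhibitors and trafficking proteins 5 rose and 2 fell, where 21.9% of all genes were called higher and 21% lower; these counts are not read as a result about the list. The risers included SIPA1, which switches RAP1 off (3.13-fold, 56.2 to 176 CPM), and the docking proteins DOK2 (2.59-fold) and DOK1 (1.69-fold). ITGB1BP1, which competes with talin for the tail of ITGB1, fell to 0.744-fold.

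Downstream of ligand binding, 18 of 32 tested signalling and focal adhesion genes rose with ATRA and 4 fell, beside 21.9% and 21% of all genes. The Src family kinase FGR rose 22.5-fold, from 21.2 to 477 CPM, and LYN 3.02-fold. The signalling adaptors TYROBP and FCER1G, through which ITGB2 receptors signal to SYK, rose 7.43-fold and 4.21-fold, and SYK itself 1.37-fold. FYN, another kinase of the family, fell to 0.276-fold. PTK2, the focal adhesion kinase, had 8 counts in all libraries and was not tested, while its relative PTK2B rose 2.09-fold.

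Of the 17 tested ligands 5 rose and 2 fell with ATRA, which is near the 21.9% and 21% of all genes and is not read as a result about the list. ICAM3 and F11R, both bound by ITGAL with ITGB2, rose 1.85-fold each and ICAM4 1.53-fold, and THBS1 rose 7.84-fold from 0.362 to 2.87 CPM. ICAM2, another ligand of ITGAL with ITGB2, fell to 0.684-fold (adjusted p = 0.0494, edgeR) and ADAM15 to 0.783-fold. VCAM1 and the fibrinogen genes FGA, FGB and FGG had no counts. Among tetraspanins and other membrane partners 9 of 16 rose and 3 fell, where 21.9% of all genes were called higher and 21% lower. CD36, a thrombospondin receptor, rose 20.3-fold (11.3 to 229 CPM), CD82 4.52-fold and CD63 2.8-fold. PLAUR, the urokinase receptor that associates with ITGAM and ITGB2, rose 2.24-fold, whereas CD47 fell to 0.686-fold. All genes said here to rise or fall passed the edgeR test with Benjamini-Hochberg adjustment over all genes.

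LAA alone called no gene in any of these 6 lists, among 4 genes called in all (2833 genes had an unadjusted p under 0.05). Added to ATRA it called 2 of the 17 tested ligands, both lower, where 1.01% of all genes were called (0.52% lower). They were F11R, by -0.48 ± 0.09 (adjusted p = 0.0433, edgeR), and LAMC1, a laminin chain, by -0.49 ± 0.10 (adjusted p = 0.0466). Over all genes the 152 calls of this comparison became 13 to 903 in the alternatives that kept all libraries. Without 1 library they became 6 to 172. PLAUR (-0.43 ± 0.09, adjusted p = 0.0525) did not pass.

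**Figure D4:**
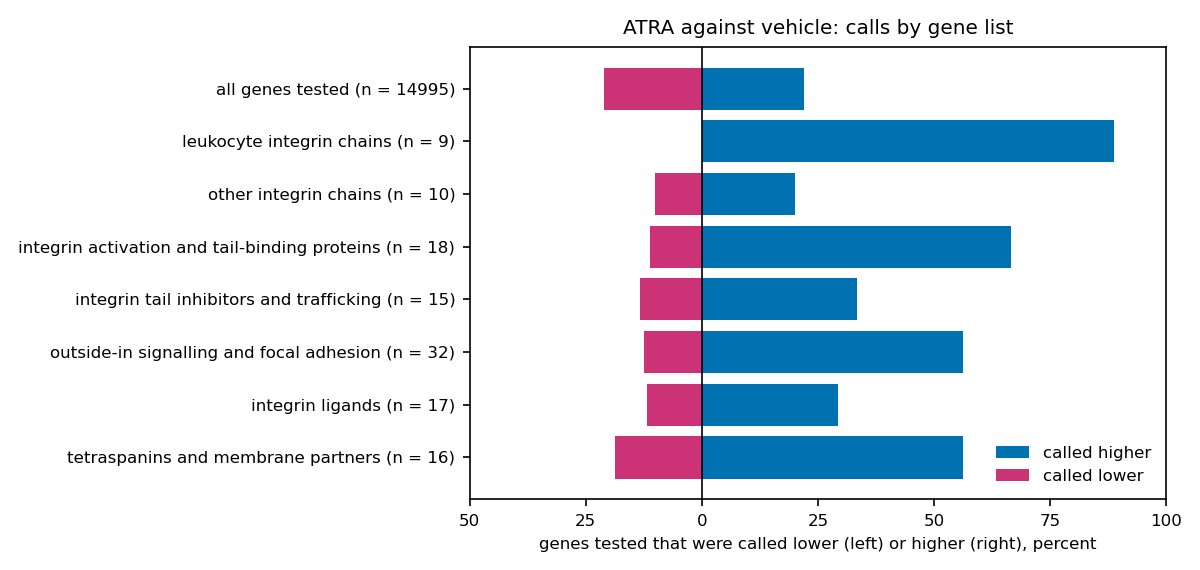
Percent of the genes tested in each list that were called higher (right of 0) or lower (left of 0) with ATRA against vehicle, with the number tested beside each name; all genes tested and the 9 chains are at the top. Of the chains 8 of 9 were called higher, and of the activation and tail-binding proteins 12 of 18, beside 21.9% of all genes. ITGB7 is among the 8 but passed the low-count filter through the groups with ATRA, so its place supports nothing.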

How the data were processed

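RNA was measured in 8 libraries of U-937 cells, 2 per group. Per the labels' protocols, poly-T beads enriched the mRNA and an NEBNext Ultra II kit was used for the libraries, and the submitters' processing notes name Salmon 1.8.0, DESeq2 1.36.0 and the build GRCh38. The authors deposited estimated counts per gene, which are not whole, and FPKM values scaled by the authors per kilobase and library; annotation release, strand setting and scaling were not given in the sources used here. Integrin chains and gene lists were chosen with earlier results of these data known.

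Estimated counts were rounded (16.5% of values changed). In edgeR 4.0.16 under R 4.3.3, genes were filtered with filterByExpr, scaled by TMM and fitted with 4 group means over all 8 libraries (4 residual and 8.2 prior degrees of freedom), with a quasi-likelihood F test and Benjamini-Hochberg adjustment over all genes within each comparison. Calls needed an adjusted p under 0.05, and CPM are TMM-scaled. Tested on simulated data for ATRA against vehicle (14552 genes), the fit called 20 of 50 genes changed 1.5-fold, 43 of 50 changed 2-fold, 36 of 50 changed 0.5-fold and 6 of 14352 unchanged genes. The simulation gave all genes and groups the same spread and left most genes unchanged, whereas 42.9% of genes were called in the data. Its rates therefore need not hold for the comparisons reported. Shares were tested by exact permutation in scipy 1.17.1. All 10 chains are described. In each list the genes named are the 4 called with the smallest adjusted p for ATRA against vehicle, and others were chosen after their values were seen. Positions are from GENCODE 29. Intervals cover the spread between libraries. Alternatives were DESeq2 1.42.0, its size factors, no filter, a replicate block, limma 3.58.1 on log2(FPKM + 1) and log2(FPKM + 0.1), length offsets, fits on the compared libraries, each library left out and, chosen after seeing the data, length and GC offsets and the averaged LAA effect. Same-numbered replicates did not deviate together (correlations from -0.0727 to 0.0771), so the numbers do not pair samples. Protein sequences were not analysed here.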

Additional observations from a re-analysis of the deposited data

Results flagged for a closer look

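The estimates of the LAA effect on ITGAM had opposite signs in the 2 ATRA states, and neither passed its test (0.24 ± 0.16 without ATRA, adjusted p = 0.465, and -0.36 ± 0.13 with ATRA, adjusted p = 0.166, edgeR). Both LAA libraries (11.6 and 13.97 CPM) lay above both vehicle libraries (10.2 and 11.5 CPM), by little for the nearest pair, and both LAA+ATRA libraries (114.9 and 98.96 CPM) lay below both ATRA libraries (153.7 and 121.6 CPM). The test of the difference gave -0.60 ± 0.21 on the log2 scale, or -0.6036 before rounding, which did not pass (edgeR interaction, adjusted p = 0.856; from 0.149 to 1 over the other settings). No explanation was tested.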

How the results depend on the processing

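The 8 chains called with ATRA stayed at 8 in the 10 alternatives that kept all libraries and at 7 to 8 without 1 library; LAA+ATRA against vehicle gave 7 to 8 and against LAA 7 to 8, and the interaction 0 in all. For LAA against vehicle the count was 0, but 4 in each of DESeq2, the unfiltered fit and the fit on the compared libraries alone, and 0 to 2 without 1 library. For LAA+ATRA against ATRA the count of 3 became 5 with DESeq2, 0 with the replicate block, on log2(FPKM + 1) with and without a filter, on log2(FPKM + 0.1), with implied gene length offsets and on the compared libraries alone, and 0 to 1 without 1 library. With the block for replicate number no other count of chains changed. The averaged LAA effect called 5 chains, 0 on the 3 FPKM settings, 3 with implied gene length offsets and 0 to 6 without 1 library. Over all genes, the calls for LAA against vehicle (4) ranged from 0 to 2187 over these settings, for LAA+ATRA against ATRA (152) from 13 to 903 and, without 1 library, from 6 to 172, for the interaction (1) from 1 to 136 and for the averaged effect (1870) from 11 to 2486; the cause was not tested. Signs turned for values that were not called: ITGAX with LAA to 0.083 on log2(FPKM + 1) with and without a filter, 0.11 on log2(FPKM + 0.1) and 0.16 with implied length offsets; the ITGA5 interaction to 0.091 on log2(FPKM + 1) with and without a filter, 0.092 on log2(FPKM + 0.1) and 0.098 with implied length offsets; the averaged ITGAM effect to 0.015 with implied length offsets; and with length and GC offsets ITGA4 with ATRA to 0.061, ITGB1 with both against vehicle to 0.16 and averaged ITGAM to 0.040. Without 1 library, ITGAX with LAA ran from -0.30 to 0.071, ITGB7 with both against ATRA from -0.44 to 0.082, averaged ITGAM from -0.14 to 0.022, and the interactions of ITGAL from -0.064 to 0.26, ITGA4 from -0.13 to 0.084 and ITGA6 from -0.24 to 0.018. The differences in shares ran from 17.9 to 19.5, from -17.5 to -16.7 and from 6.01 to 7.35 percentage points without 1 library, where 0.0571 is the smallest p possible. Of 960 values of single chains 876 kept direction and side of the threshold, 40 lost the call, 24 gained it and 20 turned. This count leaves out the averaged LAA effect and the shares. With 2 libraries a group, small changes were often missed in the simulated data, 20 of 50 at 1.5-fold being called. The settings of that simulation differ from the data, so the rate need not hold for them.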

Other observations

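ITGB2-AS1, annotated antisense to ITGB2, had 5 and 4 counts in vehicle, 4 and 7 with LAA, 24 and 28 with ATRA and 20 and 32 with LAA+ATRA, so every library with ATRA held more than every library without it. With the strand setting not given, these reads and those of ITGB2 cannot be told apart where the genes overlap, and 124 counts over all libraries is small beside ITGB2.

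NKG7, a granule gene listed as a T and NK cell marker, gave nearly all of that list's summed level, which was 267 to 279 CPM in vehicle, 276 to 293 with LAA, 319 to 370 with ATRA and 353 to 364 with both, while CD3D, CD3E, CD8A and KLRD1 were at 0. PECAM1, an adhesion molecule also present on leukocytes, read 60.5 and 61.3 CPM in vehicle and 110 and 103 CPM with ATRA, and gave nearly all of the level of the list for fibroblasts and endothelium.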
